A study of Danio rerio with 4 samples.

Results

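The insulin-like growth factor (IGF) axis genes examined here are 10 genes: 5 IGF binding protein genes (igfbp1a, igfbp1b, igfbp2a, igfbp2b and igfbp3), 3 ligand genes (igf1, igf2a and igf2b) and 2 growth hormone receptor genes (ghra and ghrb). They were taken by symbol from a table of 11021 genes, and all 10 were present. The RNA was taken from larval zebrafish livers 5 days after fertilisation. The group analysed carried Tg(fabp10:has.UHRF1-GFP), in which the hepatocyte promoter of fabp10 drives human UHRF1 joined to GFP, and was the line named High; its 2 libraries are A and B. The other group of the study, age-matched Tg(fabp10:nls-mCherry) larvae with nuclear mCherry under that promoter, was not analysed here. No value below therefore compares UHRF1 with mCherry livers, and every difference is between 2 libraries of the same group. No label ties A or B to a clutch, or to either of the 2 batches the series text mentions, so the spread between them may be partly technical.

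IGF ligands are small hormones related to insulin that signal through the IGF receptors, and growth hormone acting on its receptor in the liver is the classical stimulus for igf1 transcription. The binding proteins hold IGFs in the blood and tissues and set how much reaches the receptors. In mammals IGFBP1 is made mainly by the liver and is repressed by insulin and raised in fasting and hypoxia. Zebrafish carry pairs of several of these genes (a and b), which descend from the genome duplication of teleost fishes.

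Values are quantile-normalised, which gives both libraries nearly the same set of values, so that a value reports a gene's rank within its library. The median gene stood at 4.36 (A) and 4.41 (B). The lowest value was 0.0203 in A, shared by 694 genes, and 0 in B, shared by 449. Sequencing depth is unknown. No source says whether transcript length was taken into account. An order of different genes below is therefore an order of deposited values, to which length may contribute, whereas a gene set against itself across the libraries is free of this. Hepatocyte markers were abundant, as the label of liver requires: 11 of 12 listed genes were measured. None was at the lowest value of either library, and their values summed to 255935 (A) and 241569 (B). Most of each sum came from apoa1b (130650), apoa2 (73737) and fabp10a (29654.5). These held the same top ranks in both libraries, so quantile normalisation gave them the same values. The near-equal sums therefore do not show that the other hepatocyte markers were level.

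Binding protein genes held the first 3 places among the members in both libraries. The first was igfbp1b (chromosome 2, 167229 to 170794, Zv9), at 465 in A and 398 in B (mean 431 ± 48.0, SD, n = 2). Its rank in the table was 248 in A and 276 in B. The second was igfbp1a (chromosome 20, 7029584 to 7033467), with 362 in A and 213 in B (mean 287 ± 105, SD, n = 2). The values of igfbp1b lay above those of igfbp1a in each library and the ranges of the pair did not overlap. Their ratio, igfbp1b over igfbp1a, was 1.29 in A and 1.86 in B, so igfbp1a differed more between the libraries.

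Next came igfbp2a (chromosome 6, 22605856 to 22636537), whose mammalian counterpart IGFBP2 is a circulating binding protein made in the liver. Its value was 339 in A and 155 in B (mean 247 ± 130, SD, n = 2). Its value lay below that of igfbp1a in each library, so the order of this pair was the same in both. The ranges of the pair over the 2 libraries overlapped. These 3 genes made up 99.0% of the summed value of the 5 binding protein members in A and 98.9% in B.

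The paralog igfbp2b (chromosome 9, 47794251 to 47848582) was far lower, with 9.09 in A and 1.55 in B (mean 5.32 ± 5.33, SD, n = 2). Its SD was as large as its mean, and its percentile in the table was 64.8 in A and 31.3 in B. The value of igfbp2a was 37.4 times that of igfbp2b in A and 100.3 times in B. The last of the binding proteins was igfbp3 (chromosome 20, 7037972 to 7067241), the main IGF carrier of mammalian serum. It had 2.14 in A and 6.65 in B (mean 4.39 ± 3.19, SD, n = 2). The ranges of igfbp2b and igfbp3 overlapped, and igfbp2b was the higher in A while igfbp3 was the higher in B.

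Of the ligand genes, both igf2 paralogs lay above the median gene in both libraries. The gene igf2a (chromosome 7, 50327496 to 50333460) had 24.3 in A and 18.1 in B (mean 21.2 ± 4.36, SD, n = 2). Its paralog igf2b (chromosome 25, 24762713 to 24770214) had 17.4 in A and 9.997 in B (mean 13.7 ± 5.24, SD, n = 2). The order igf2a above igf2b held in each library, with ratios of 1.40 and 1.81, and the ranges did not overlap. IGF2 is the IGF that mammals express most in fetal liver.

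The ligand gene igf1 (chromosome 4, 16378347 to 16395001), the growth hormone target that adult liver secretes, had low values in both libraries. It had 0.894 in A and 0.203 in B (mean 0.549 ± 0.489, SD, n = 2), which is percentile 23.0 in A and 9.94 in B. At these values ties are heavy: 50 genes shared its value in A and 43 in B. The difference between its libraries therefore lies in a range where the table has few distinct values, and igf1 did not pass the filter of a mean value of 1.

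The growth hormone receptor genes were low as well. The gene ghrb (chromosome 21, 19570728 to 19593198) had 2.95 in A and 2.51 in B (mean 2.73 ± 0.311, SD, n = 2), below the median gene in both. Its paralog ghra (chromosome 8, 32313266 to 32454481) had 0.487 in each library, a value shared by 271 genes in A and 113 in B, and did not pass the filter either. The value of ghrb was 6.05 times that of ghra in A and 5.15 times in B. The ranges of igf1 and ghra overlapped, so the last places have no order beyond the spread, and neither do igfbp3 and ghrb, whose ranges also overlapped. The range of igfbp2b overlapped that of ghrb too, and ghrb was the higher of that pair in B.

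**Figure D1:**
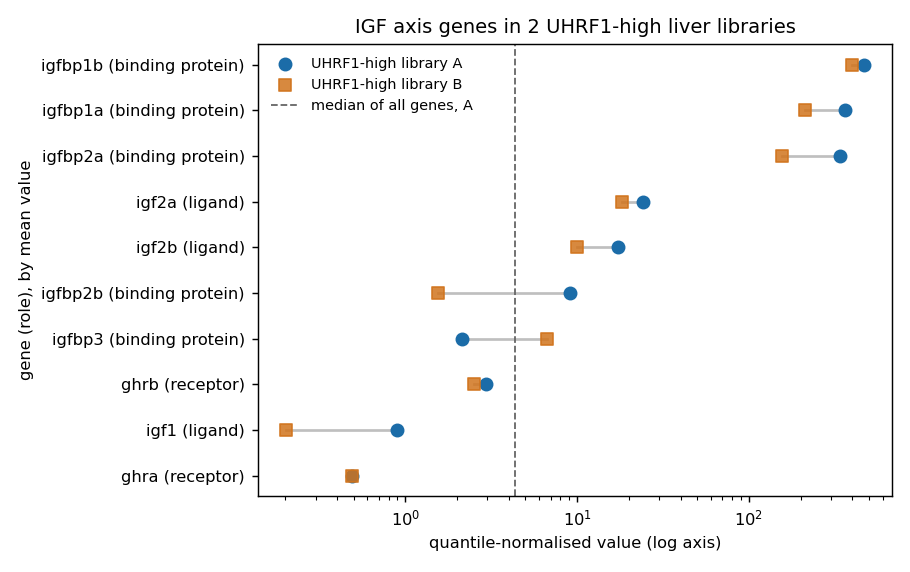
Quantile-normalised value (log axis) of the 10 IGF axis genes in UHRF1-high libraries A (circles) and B (squares), ordered by mean, with a grey line joining the 2 values of a gene and a dashed line at the median of all genes in A. The genes igfbp1b, igfbp1a and igfbp2a lie between 155 and 465, the igf2 genes between 9.997 and 24.3, and igf1 and ghra below 1; the symbols of ghra coincide.

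Of the 10 members, 8 passed the filter, and 7 of those had the higher value in A, beside 48.6% of all genes that passed. The count that differed by at least 2-fold on the log2(value + 1) scale was 3, while 13.9% of the 8386 genes that passed did so. Toward A these were igfbp2b, with a log2 difference (A minus B) of 1.99 or 3.96-fold, and igfbp2a, with 1.12 or 2.18-fold; 7.07% of all genes were at least 2-fold higher in A. Toward B it was igfbp3, with -1.29 or 2.44-fold, against 6.83% of all genes. Unless another pseudocount is named, folds here and below come from values with 1 added. For low genes this gives a smaller fold than the ratio of the values. With a pseudocount of 10 the count is 1 (igfbp2a), and it is also 1 when only means from 10 up are kept, which igfbp2b and igfbp3 do not reach.

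The remaining members differed by less than 2-fold. The log2 difference was 0.76 for igfbp1a, 0.74 for igf2b, 0.40 for igf2a, 0.23 for igfbp1b and 0.17 for ghrb. Over all genes that passed, the 10th and 90th percentiles of this difference were -0.82 and 0.83, so these 5 lay inside the central range of the table. The members that passed had a median of 0.57, beside -0.02 over all genes. At mean values from 100 up, where igfbp1a, igfbp1b and igfbp2a lie, 15.1% of genes were at least 2-fold apart, and at means of 1 to 10, where igfbp2b and igfbp3 lie, 13.1% were.

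**Figure D2:**
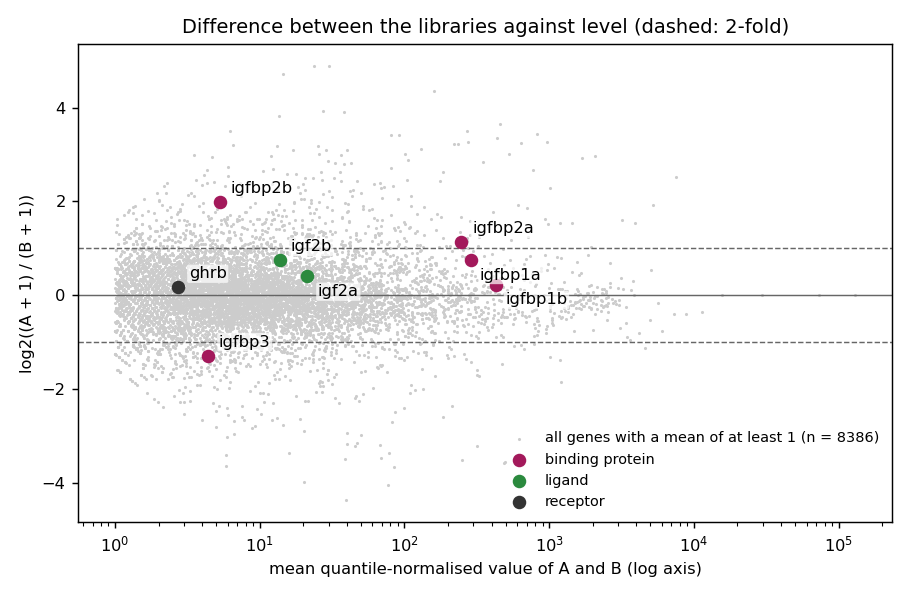
Log2 difference between libraries A and B (pseudocount 1) against the mean value (log axis) for 8386 genes (grey) and the 8 IGF axis genes that passed the filter, coloured by role; dashed lines mark 2-fold. Above the upper line lie igfbp2b (1.99) and igfbp2a (1.12), below the lower line lies igfbp3 (-1.29), and igfbp1b sits near 0 at the highest level of the members.

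Binding protein genes of the igfbp1 and igfbp2 kinds lie beside genes of the igfbp3 and igfbp5 kinds in vertebrate genomes, and the table shows 3 such neighbours. On chromosome 20, igfbp1a and igfbp3 were separated by 4504 bases. Their values went in opposite directions between the libraries: igfbp1a was the higher in A (362 against 213) and igfbp3 the higher in B (6.65 against 2.14). On chromosome 6, igfbp5b (22594881 to 22603046) ended 2809 bases before igfbp2a. It had 0.183 in A and 1.12 in B, while igfbp2a had 339 and 155. The gene on the other side of igfbp2a, stk11ip, had 3.63 in A and 1.67 in B.

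On chromosome 9, igfbp5a (47869608 to 47891113) began 21025 bases after igfbp2b. It had 0.304 in A and 1.21 in B, while igfbp2b had 9.09 and 1.55. So in each of the 3 neighbourhoods the igfbp1 or igfbp2 gene had the higher value in A and the igfbp3 or igfbp5 gene the higher value in B. Low neighbours of other members, outside the axis, were mostly higher in B as well. These included hspb11 beside ghrb (0.0203 and 1.06), parpbp beside igf1 (0.0203 and 0.976) and hrasb beside igf2a (0.183 and 0.965). Of the neighbours outside the axis with a mean below 1, only adcy1a beside igfbp1a was not higher in B. It had the lowest value of each library (0.0203 and 0). On the other side of igfbp2b, cx43.4 had 1.40 in A and 3.89 in B. Both igfbp5 genes had a mean below 1 and did not pass the filter, and this arrangement was noticed after the values were seen. Neither neighbour of igfbp1b in the table was a gene of the axis. The nearer, znfl2a, 2254 bases away, had 5.61 in A and 5.21 in B. The other, zgc:154086, had 0.0203 in A and 1.53 in B.

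Symbols of these paralogs have changed over time. RefSeq lists igfbp2b as an older symbol of igfbp2a and the reverse, and likewise for igf2a and igf2b. The table's igfbp2a lies beside stk11ip and its igf2b beside mrpl23, as in the current RefSeq gene table, so these members carry their current names. The igfbp5 pair does not: RefSeq now gives igfbp5a as the neighbour of igfbp2a and igfbp5b as that of igfbp2b, the reverse of the deposited table, whose spelling is kept here.

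**Figure D3:**
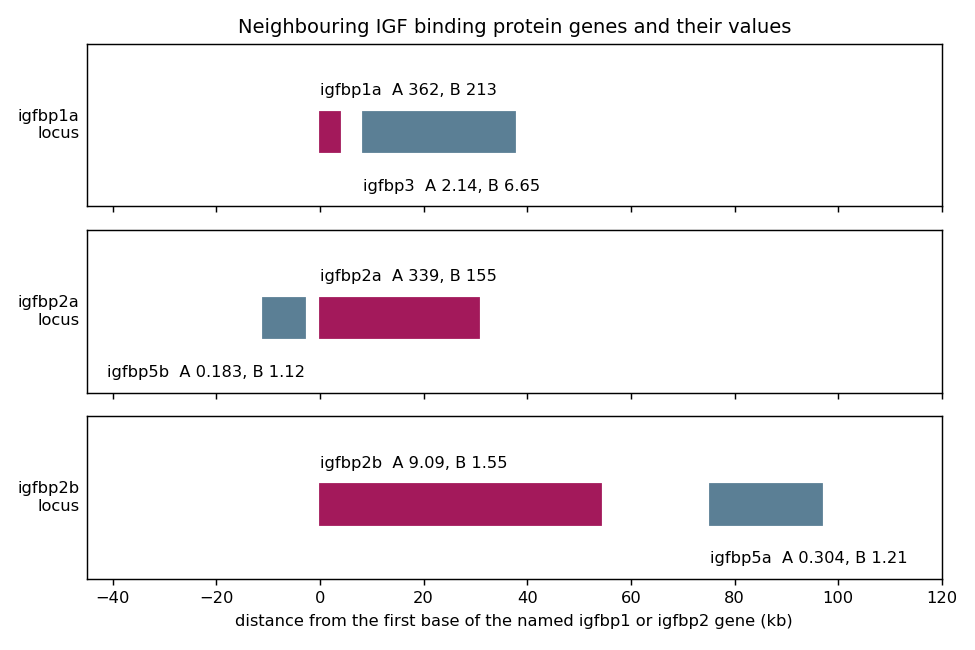
Spans of igfbp1a, igfbp2a and igfbp2b (purple) and of the binding protein gene beside each (blue), to scale in kilobases from the first base of the purple gene, with the values in libraries A and B printed beside each gene. The purple gene has the higher value in A in all 3 panels and the blue gene has the higher value in B.

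The wider pathway was followed with 6 gene lists, in which 95 of 145 further genes were measured and 74 passed the filter. Of these 74, 49 had the higher value in A and 25 in B, with a median log2 difference of 0.25, while 48.6% of all genes that passed were higher in A. At least 2-fold higher were 16 (21.6%) in A and 0 in B, beside the 7.07% and 6.83% of all genes. Of the 16, 8 belonged to the list of fasting and stress genes and 1 was the insulin gene. The lists were written with earlier results of these data known, so these shares are a description and no independent support. The 5 genes of the ligand list that passed, igf2a and igf2b among them, were all higher in A. The highest of that list was the insulin gene ins, a product of pancreatic beta cells, with 46.8 in A and 0.609 in B. The genes for RNA-binding proteins named after IGF2 messenger RNA, igf2bp3 (12.1 and 8.56) and igf2bp1 (2.996 and 1.69), differed by less than 2-fold.

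Among the other binding protein genes, igfbp7, whose product binds IGF weakly and insulin as well, had 39.8 in A and 79.2 in B, a log2 difference of -0.97. With igfbp3 it was 1 of the 2 genes of that list that passed the filter with a higher value in B. The list, which includes the 5 binding protein members, had 11 of 20 genes measured and 6 past the filter. Apart from those members, igfbp7 was the only gene of the list past the filter.

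Of the 10 receptor genes measured, 4 passed the filter. The highest was insra, for an insulin receptor, with 3.69 in A and 5.87 in B, the latter above the median gene of that library. Next came ghrb, described above, and sort1a, for the sorting receptor sortilin, with 1.28 and 1.67. The IGF receptor genes igf1ra (0.304 and 0.0609) and igf1rb (0.0203 and 0.304) were near the lowest values of the table, and igf2r, for the receptor that removes IGF2, had 1.04 and 1.21. The second insulin receptor gene insrb had 1.67 in A and 0.183 in B and did not pass the filter.

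Genes that carry the growth hormone signal were led by cish, a feedback inhibitor that STAT5 induces, with 57.2 in A and 26.8 in B or 2.09-fold. The phosphatase gene ptpn1 (17.98 and 12.0) and the transcription factor gene hnf1ba (11.1 and 8.32) followed. Both STAT5 genes were low and higher in A: stat5.1 had 3.24 and 0.651, and stat5.2 had 2.44 and 0.609. With 1 added to each value, these were differences of 2.57-fold and 2.14-fold. The kinase gene jak2a was at 7.487 and 7.497. Toward B the largest differences were those of the feedback inhibitor genes socs3a (6.46 and 10.1) and socs1a (5.61 and 7.83), both under 2-fold. Of the 15 genes of this list that passed, 10 leaned to A and 3 of these reached 2-fold, beside 48.6% and 7.07% of all genes.

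Downstream of the insulin and IGF receptors, 27 of 34 measured genes passed. Of these, 20 leaned to A, 4 by 2-fold or more, and 7 to B, 0 by as much, beside the same 48.6%, 7.07% and 6.83% of all genes. The highest was rps6, a ribosomal protein that S6 kinase phosphorylates, with 3139 in A and 2826 in B. The translation repressor genes eif4ebp1 (156 and 154) and eif4ebp2 (97.5 and 83.2) followed and differed by less than 2-fold. The largest differences toward A were those of the adaptor gene shc2 (5.73 and 1.34) and the kinase gene akt3a (39.8 and 14.9). With 1 added to each value, they were 2.87-fold and 2.56-fold. Toward B, pdpk1b, for the kinase that activates AKT (19.3 and 26.8), and the adaptor gene grb2b (19.0 and 23.1) differed by less than 2-fold. The median of the list was 0.23.

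Genes known to respond to fasting, hypoxia or stress had 25 members past the filter, of which 16 leaned to A, 8 by 2-fold or more, and 9 to B, 0 by as much. Over all genes that passed, 48.6% leaned to A, 7.07% reached 2-fold toward A and 6.83% toward B. The gluconeogenesis genes pck1 (1406 and 455), g6pca.2 (760 and 335) and fbp1b (630 and 184) were the highest, at 3.09-fold, 2.27-fold and 3.41-fold. Next to these, igfbp1a (1.69-fold) and igfbp1b (1.17-fold) differed less. The median of the whole list was 1.36-fold toward A, which igfbp1a exceeded and igfbp1b did not reach. The tyrosine aminotransferase gene tat (35.8 and 5.54) and pdk2, for a pyruvate dehydrogenase kinase (28.2 and 6.41), had the largest differences of the list. Toward B stood fbp1a (9.24 and 18.1) and atf4b1, for a stress transcription factor (112 and 191).

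By list median, markers of exocrine pancreas, endocrine pancreas and skeletal muscle differed between the libraries by more than any of the 10 members. Exocrine pancreas markers, 9 of 10 measured, summed to 9249 in A and 1002 in B. The marker ptf1a had 0.183 in A and 0 in B. No gene was at 0 in A, where the lowest value was 0.0203. Endocrine pancreas markers, 7 of 9 measured, summed to 72.4 and 16.9, with sst2 at 6.998 and 0 and isl1 at 0.183 and 0. The gene ins gave 46.8 of that sum in A, and of the 5 endocrine markers past the filter 3 were higher in A and 2 in B, pdx1 (5.57 and 10.5) and gcga (4.77 and 5.28). Skeletal muscle markers, 10 of 10, summed to 370 in A and 3239 in B. Of the 11 hepatocyte markers, 5 were higher in A, 4 of these by 2-fold or more, and 3 were higher in B, 0 by as much. Over all genes that passed, 7.07% reached 2-fold toward A and 6.83% toward B. The 3 hepatocyte markers at the top of the table had the same value in both. The pancreas sums were higher in A, as were 7 of the 8 members past the filter, beside 48.6% of all genes that passed. More hepatocyte markers were higher in A than in B as well (5 against 3). The muscle sum was higher in B, as was igfbp3, and so were most of the sums given next.

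The remaining marker lists had sums that were higher in B or nearly level. Skin markers, 6 of 7, summed to 157 and 473, and macrophage and neutrophil markers, 6 of 10, to 24.8 and 101. Stellate and mesenchymal markers, 9 of 9, summed to 32.9 and 85.9, with desmb at the lowest value of each library (0.0203 and 0). Biliary markers, 5 of 7, summed to 1012 and 2421, and erythrocyte markers, 7 of 8, to 1440 and 2337, while endothelial markers, 4 of 9, had 23.4 and 24.2. Of the 6 erythrocyte markers past the filter, 4 globin genes were higher in B, while alas2 (8.67 and 4.77) and slc4a1a (9.70 and 6.42) were higher in A. The part of any of the marked cell types, hepatocytes included, in the differences of the members, the igfbp5 genes, igfbp7 and the pathway lists was not tested. In bulk RNA, fewer cells of a type and less RNA per cell cannot be told apart.

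**Figure D4:**
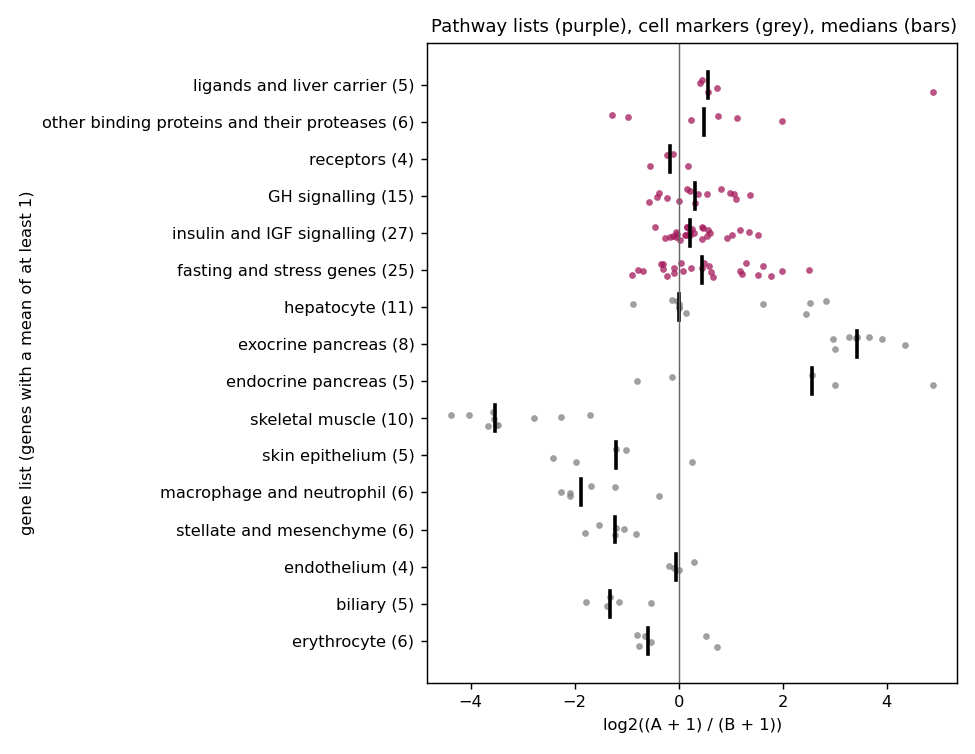
Log2 difference between libraries A and B (pseudocount 1) of each gene past the filter in 6 pathway lists (purple) and 10 marker lists (grey), with a bar at the list median and the number of genes in brackets. The pathway lists include the members. Pathway medians lie between -0.17 and 0.57, while exocrine pancreas markers have a median of 3.42 and skeletal muscle markers one of -3.54.

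Genes whose values were nearest to those of the 3 highest members were found by their distance in log2(value + 1) over the 2 libraries. The nearest to igfbp1b was tkt, the transketolase gene, with 430 in A and 409 in B, at a distance of 0.12. The nearest to igfbp1a was f10, for coagulation factor X, with 359 and 226, at 0.084. The nearest to igfbp2a was dhrs9, a dehydrogenase gene, with 336 and 172, at 0.15. With 2 libraries this likeness is one of level and of a single difference.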

How the data were processed

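Per the sample labels, polyadenylated RNA of zebrafish livers was sequenced; the series' design text instead names small RNA, a conflict the sources do not settle. The table used lists values by gene, and its columns bear the titles of libraries A and B. It held 0 further per-sample columns. According to the table's name, the authors applied quantile normalisation to the signal before depositing it. The build Zv9 (danRer7) and CASAVA 1.7 come from the submitters' processing notes. How reads were assigned to genes, whether strand was used, and the unit before normalisation are details not given in the sources used here. Depth is unknown, so no counting interval is given.

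Differences were computed with pandas 2.3.3 as log2((A + 1) / (B + 1)), which makes the differences of low genes smaller, and only genes whose mean value reached 1 were compared. There was 1 group, so no test was run. The difference calculation was tested on simulated data. The members and gene lists were chosen with earlier results of these data known. Named genes were all members and the 3 highest of each of the 6 pathway lists. From each list, the 2 with the largest difference in each direction past the filter were also named. Of the genes nearest in level, only the first for each of the 3 highest members was named. Outside these rules, jak2a, igf2bp1, igf2bp3, the igf1 and igf2 receptor genes, insrb and the igfbp5 genes were added after their values were seen. The other chromosome neighbours and the markers named singly were also chosen with their values known. The RefSeq gene table (GRCz12tu) served for names and neighbours. Starts are counted from 1. Alternatives changed the pseudocount, the filter, the scaling and the libraries used. Protein and promoter sequences were not used here.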

Additional observations from a re-analysis of the deposited data

How the results depend on the processing

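The log2 differences of the 8 members that passed the filter kept their direction in all 37 recomputed values, with 0 reversed. A change of pseudocount or filter cannot reverse a direction. Only the scaling could, and the medians it used were nearly equal (4.36 in A and 4.41 in B). The count of reversals is therefore no test of direction. The number of members at least 2-fold apart was 3 with 0.1 as pseudocount, when unfiltered, and after scaling both libraries to the same median. It was 1 with a pseudocount of 10, where igfbp2b fell to 0.72 and igfbp3 to -0.46, and 1 when only means from 10 up were kept, which left 5 members. Over all genes the share at least 2-fold apart was 20.8% with a pseudocount of 0.1 and 3.84% with 10. The median of the members ranged from 0.37 to 0.74. Of the 10 places in the order of levels, 5 to 8 were kept when either library was left out, and the first 5 were kept both times. By percentile rank all 10 were kept, but a quantile-normalised value already reports rank, so this is hardly a separate check. No test between groups was run, since the control libraries were not analysed here. No paired analysis was possible because the values come from 1 group. Unknown depth limits what can be said of igf1, ghra and the igfbp5 genes. The same holds for the differences of igfbp2b and igfbp3. The igfbp2b value in B was shared by 35 genes and the igfbp3 value in A by 37.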
